A study of Mus musculus with 27 samples.

Results

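The genes described are the ligands and receptors of the CCR7 axis, 5 genes chosen by symbol (Ccl21a, Ccl21b, Ccl19, Ccr7 and Ackr4) out of 54446 in the count tables. They were followed through 27 RNA-seq libraries of cells sorted from 12-week-old mice on the non-obese diabetic (NOD) background, a strain that develops autoimmune diabetes. TG+ mice carry Ins2-CCL21, in which an insulin promoter drives the chemokine in beta cells, and TG- mice are plain NOD/ShiLtJ. By label, 4 TG+ and 4 TG- libraries came from CD45 leukocytes of the islets, 2 TG+ and 2 TG- from gp38-high and 4 TG+ and 4 TG- from gp38-low islet stroma, and 3 TG+ and 4 TG- from fibroblastic reticular cells, or FRCs, of skin-draining lymph nodes. Beta cells were not among the sorted populations. The labels do not say which CCL21 copy the transgene holds, whether animals were pooled, or whether replicates are separate mice, so p-values measure the spread between these libraries, which may be technical.

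CCR7 is the receptor that brings naive T cells, B cells and mature dendritic cells into the T cell zones of lymph nodes. CCL21 and CCL19 are its ligands: CCL21 carries a charged tail that binds matrix and lines stromal surfaces, while CCL19 is freely soluble. ACKR4 binds the same ligands without signalling through G proteins and takes them up for degradation, so it acts as a scavenger. In lymph nodes, FRCs and lymphatic endothelium make CCL21, and FRCs make CCL19.

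A library held 8517844 to 25194443 reads in genes (median 14580571), and the largest level a count of 0 allows, 3 counts, was 0.119 to 0.352 CPM (counts scaled to a common total of reads in genes). The non-coding RNA Gm26917 took 5.31% to 36.0% of the reads in genes. The libraries fell into 4 classes by 3 measured levels. In 7 libraries Ccl21a was above 1000 CPM (called Ccl21a-high), in 8 Ptprc, the gene of CD45, was above 100 CPM (Ptprc-high), in 4 the mesothelial gene Msln was above 100 CPM (Msln-high), and 8 passed none of the thresholds (remaining). No library passed more than 1 threshold. The values nearest to the thresholds were 2162 CPM above and 5.28 CPM below for Ccl21a, 169 and 5.79 CPM for Ptprc, and 573 and 2.52 CPM for Msln. These classes cut across the labels: 7 of 8 libraries labelled CD45 had Ptprc at or below 5.79 CPM, and 7 of 19 libraries labelled stromal were Ptprc-high, among them all 3 of LN_FRC TG+ and 2 of 4 of LN_FRC TG-. No library labelled LN_FRC was Ccl21a-high. Levels are therefore given by class, as descriptions with no test, and each library is named by its label. The class sizes, 8 Ptprc-high, 7 Ccl21a-high, 4 Msln-high and 8 remaining, equal in turn the numbers labelled CD45, LN_FRC, gp38-high and gp38-low. Whether the labels or the sorted cells account for the mismatch was not tested, and every difference between labelled groups carries that limit. In sorted bulk samples, fewer cells of a type and less RNA per cell cannot be told apart. Counts of listed genes by the class of their highest median are descriptions only. The share of all genes highest in each class is not given.

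Ccl21a (ENSMUSG00000094686.1, mm10 chromosome 4, 42772860 to 42773993, minus strand) lies in a block of near-identical copies, so the sequence shows how far reads could be assigned. The copies annotated in release M21 are Gm21541 (chromosome 4, 41903610 to 41904743), Gm13304 (42114817 to 42115917), Ccl21b (42255767 to 42256432) and Gm10591 (42612195 to 42612860), all on the plus strand and protein coding. The transcripts differed from that of Ccl21a by 6 of 870 bases in Gm21541 (99.3% identity), 5 of 837 aligned bases in Gm13304 (99.4%) and 2 of 402 in Ccl21b and in Gm10591 (99.5% each). Counted from the first base of the Ccl21a transcript, the differences T159A and C269T occurred in all 4 copies (the Ccl21a base is given first), C640T, T812C and G856A in Gm21541 and Gm13304, and G24A in Gm21541. The stretch of coding sequence that holds both shared differences is printed for Ccl21a and Gm21541, with these differences in capitals.
Ccl21a: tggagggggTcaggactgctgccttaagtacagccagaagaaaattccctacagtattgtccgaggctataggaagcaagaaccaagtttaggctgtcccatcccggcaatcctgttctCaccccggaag
Gm21541: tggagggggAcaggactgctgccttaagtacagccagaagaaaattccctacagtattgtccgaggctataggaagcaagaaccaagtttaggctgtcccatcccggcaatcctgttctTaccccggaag
Of all stretches of 50 bases in the Ccl21a transcript, 71.6% held no difference to Gm21541. The share was 61.3% for 75 bases, 50.3% for 100 bases and 33.7% for 150 bases. Reads from such stretches match more than 1 place and are not in these counts, so the level of every copy is a lower limit of what its transcripts gave. Over the 402 bases aligned in Ccl21b the 4 copies carried only the 2 shared differences, so they are identical to each other there. Reads over a shared difference can be told from Ccl21a, but not assigned to 1 of the 4. Their counts are thus limited more than that of Ccl21a, and low counts do not show low expression.

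Nearly every assigned CCL21 read fell on Ccl21a. Coding reads of the 4 other copies match one another, so the share of these copies among CCL21 transcripts cannot be read from this. In the 7 Ccl21a-high libraries the 4 other copies held 120 reads together, against 434748 on Ccl21a, or 0.0276%. Ccl21b accounted for 63 of these reads, Gm13304 for 56, Gm21541 for 1 and Gm10591 for 0. Read on both strands (the unstranded column) the totals over all 27 libraries were 437266 for Ccl21a, 63 for Ccl21b and 57 for Gm13304, and the forward column added 2130, 0 and 1. Ccl21b had no reads in the other 20 libraries. It was at 2.30 CPM (39 reads) in the library labelled CD45 TG+ 3, 0.236 CPM in gp38_low TG+ 1 and 0.208 CPM in gp38_low TG+ 3, against 0.337, 0.155 and 0.447 CPM in CD45 TG- 1, 2 and 3 and 0.274 CPM in gp38_low TG- 3. Thus 6 of the 7 held 2 to 7 reads, and CD45 TG+ 3 stood above them. Gm13304 followed the same order at its top, with 25 reads in CD45 TG+ 3 and 2 to 13 in the others. The copies made up 0.0675% of the assigned CCL21 reads in CD45 TG+ 3 and 0.00891% to 0.0241% in the other 6.

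Ccl21a itself was at 5685 CPM in CD45 TG+ 3, 3582 CPM in gp38_low TG+ 1 and 2162 CPM in gp38_low TG+ 3, against 5610, 4632 and 3323 CPM in CD45 TG- 1, 2 and 3 and 2809 CPM in gp38_low TG- 3. The highest was 2.63 times the lowest, and the 3 TG+ values spanned the whole range of the 4 TG- values. The 4 libraries labelled CD45 included the 3 highest, and 1 gp38_low library lay above the lowest of them. Outside this class Ccl21a was at 5.28 CPM or less: the median was 2.47 CPM in the Msln-high libraries (0.350 to 5.28), 0.969 CPM in the Ptprc-high libraries (0.435 to 2.23) and 0.471 CPM in the remaining libraries (0 to 4.69). These 3 ranges overlapped, so their order is within their spread, and 2 of the 8 remaining libraries had no Ccl21a read.

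Ccl19 (ENSMUSG00000071005.7, chromosome 4, 42754525 to 42756577, minus strand), the soluble ligand, was high in the same 7 libraries, although it played no part in choosing them. It was at 808, 948 and 636 CPM in CD45 TG+ 3, gp38_low TG+ 1 and gp38_low TG+ 3, against 786, 689, 824 and 984 CPM in CD45 TG- 1, 2 and 3 and gp38_low TG- 3. The range was narrower than that of Ccl21a, with the highest 1.55 times the lowest, and TG+ and TG- values overlapped. In the other 20 libraries it was at most 8.86 CPM. The Msln-high libraries had 2.11 to 8.86 CPM (median 3.91) and the remaining libraries 1.30 to 2.68 CPM (median 2.21). Of the 8 Ptprc-high libraries, 5 had no Ccl19 read and the highest had 0.704 CPM. Every library outside the Ptprc-high class was at 1.30 CPM or more, so its range did not meet theirs.

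**Figure D1:**
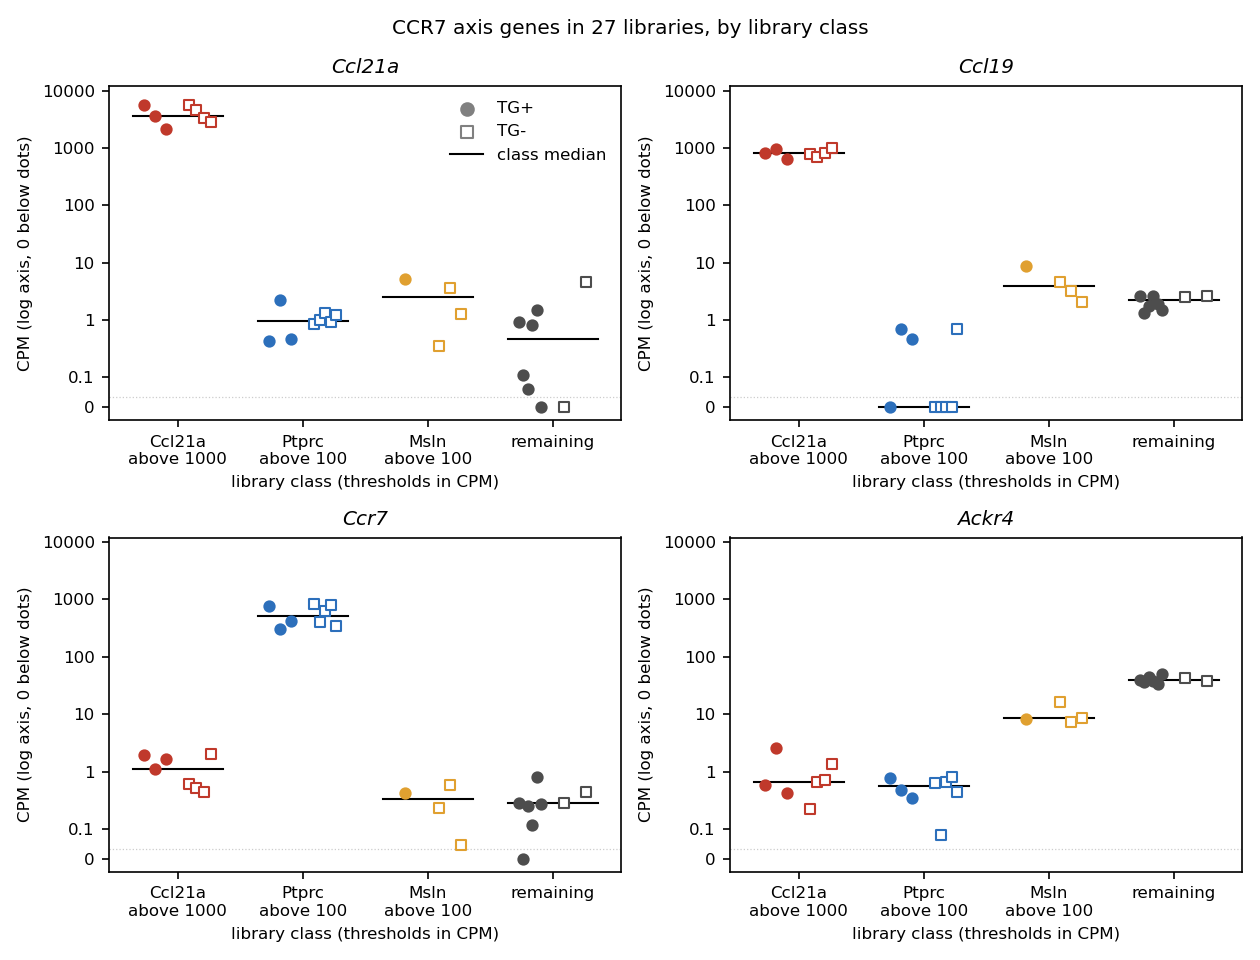
Level of Ccl21a, Ccl19, Ccr7 and Ackr4 in each of 27 libraries (y axis, CPM on a log scale, 0 drawn below the dotted line) by library class (x axis); filled circles are TG+ labels, open squares TG- labels, and lines class medians. Ccl21a and Ccl19 were high in the same 7 libraries, Ccr7 in the 8 Ptprc-high libraries, and Ackr4 was highest in the 8 remaining libraries, at 33.5 to 49.8 CPM.

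Per base of exon, Ccl21a was the more abundant ligand in each of the 7 libraries. Its level was 4117 RPKM at the median (2485 to 6534; CPM per kilobase of exon), against 932 RPKM for Ccl19 (734 to 1135). The ratio of Ccl21a to Ccl19 per length was 7.01 in CD45 TG+ 3, 3.77 in gp38_low TG+ 1 and 3.39 in gp38_low TG+ 3, against 7.11, 6.70 and 4.02 in CD45 TG- 1, 2 and 3 and 2.84 in gp38_low TG- 3. All 4 libraries labelled CD45 had a higher ratio than the 3 labelled gp38_low, by a margin of 4.02 against 3.77 at the closest pair.

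Ccl19 has an annotated pseudogene copy, Ccl19-ps1 (chromosome 4, 41921405 to 41923020), which differed from Ccl19 by 3 of 325 aligned bases (99.1% identity) and was picked after its values were seen. It received 10643 reads, and a further copy, Ccl19-ps3, received 5. For every Ccl19 read, Ccl19-ps1 had 0.0792 to 0.152 reads in the Ccl21a-high libraries (median 0.122), 0.317 to 0.75 in the Msln-high libraries and 0.821 to 2.18 in the remaining libraries (median 1.14). These ranges did not overlap. The Ptprc-high libraries had at most 8 Ccl19 reads each. The Ccl19 counts beneath them were 6112 to 13987, 40 to 126 and 22 to 67 reads, so the ratios outside the Ccl21a-high class rest on few reads. Which of the low Ccl19 reads come from the gene and which from its copies cannot be told apart from these tables.

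**Figure D2:**
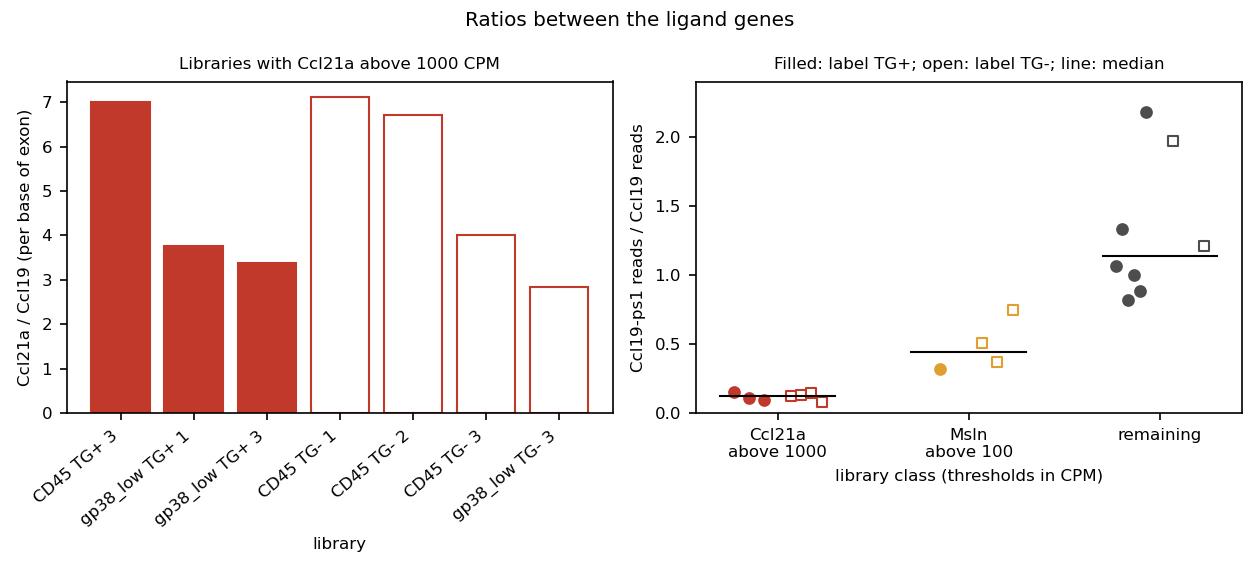
Left, ratio of Ccl21a to Ccl19 per base of exon (y axis) in the 7 libraries with Ccl21a above 1000 CPM, filled bars TG+ labels and open bars TG- labels; right, reads on the pseudogene Ccl19-ps1 per read on Ccl19 (y axis) by library class (x axis), with lines at the medians. The ratio on the left ran from 2.84 to 7.11, and the pseudogene ratio was at most 0.152 in the Ccl21a-high libraries and at least 0.821 in the remaining libraries.

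Because both ligands were high in the same libraries, their promoter sequences (RefSeq on GRCm38.p6, 250 bases before to 50 after the gene start) are shown, Ccl21a at chr4:42773942-42774241 and Ccl19 at chr4:42756316-42756615, both on the minus strand and read 5′ to 3′. RefSeq places the start of Ccl19 inside the M21 gene, so most of its window, the ATAAAT match included, lies within the gene as M21 annotates it. Capitals mark matches to the searched motifs of an NF-kappaB core or ATAAAT.
Ccl21a promoter: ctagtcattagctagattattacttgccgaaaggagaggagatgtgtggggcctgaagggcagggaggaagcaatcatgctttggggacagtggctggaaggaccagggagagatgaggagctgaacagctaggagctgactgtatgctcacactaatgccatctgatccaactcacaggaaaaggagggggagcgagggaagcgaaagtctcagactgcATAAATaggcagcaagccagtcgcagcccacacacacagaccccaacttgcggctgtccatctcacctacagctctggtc
Ccl19 promoter: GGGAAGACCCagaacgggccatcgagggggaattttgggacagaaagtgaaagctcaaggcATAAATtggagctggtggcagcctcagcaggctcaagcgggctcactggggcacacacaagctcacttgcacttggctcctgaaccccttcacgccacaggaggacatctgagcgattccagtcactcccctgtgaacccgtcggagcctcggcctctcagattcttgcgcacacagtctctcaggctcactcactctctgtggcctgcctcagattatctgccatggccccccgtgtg
Both strands were searched for an NF-kappaB core (GGG and CC with any 5 bases between them), TATAAA and ATAAAT, the last of these picked after the sequences were seen. Each promoter held 1 match to ATAAAT, and neither held TATAAA. The Ccl19 promoter held the core at its first 10 bases, where the match reads on both strands, and the Ccl21a promoter held none. Of 32851 promoters in the table, 50.8% hold the core, 13.6% TATAAA and 13.7% ATAAAT. The Ccl21a promoter differed from that of Ccl21d, the RefSeq name at the position of Gm21541, by 2 of 299 aligned bases (99.3% identity).

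The Ccl21a-high libraries also carried genes of lymph node stroma. Of 12 FRC marker genes, 10 had their highest class median there, and the markers summed to 7411 to 11751 CPM, against 1796 to 3807 CPM in the Msln-high, 2362 to 4831 CPM in the remaining and 46.6 to 317 CPM in the Ptprc-high libraries. Single markers were named after their values were seen. Clu was at 5176 CPM (4197 to 7469), a large part of the median sum of 9242 CPM, so the sums depend much on this gene. Pdgfrb, a receptor of mesenchymal cells, was at 631 CPM (563 to 783). Over all 27 libraries the means were 2280 CPM for Clu and 272 CPM for Pdgfrb. Levels of Clu and Pdgfrb in the other classes are not given. Pdgfra was at 1017 CPM (841 to 1184), which overlapped its level in the remaining libraries (1231 CPM, 966 to 1701). Pdpn, the gene of gp38, was at 93.3 CPM (61.7 to 103), between the Msln-high libraries (184 CPM, 143 to 218) and the remaining libraries (66.2 CPM, 51.1 to 97.3). Lymphatic endothelium, also named above as a source of CCL21, had 2 of its 7 markers highest in this class. The 7 markers summed to 79.0 to 144 CPM there, against 221 to 430 CPM in the Msln-high, 109 to 290 CPM in the remaining and 11.1 to 220 CPM in the Ptprc-high libraries. Prox1, the defining transcription factor of lymphatic endothelium, was at 1.73 CPM there (0.520 to 3.56). It was at 10.8 to 242 CPM in the Msln-high, 8.93 to 217 CPM in the remaining and 0.213 to 2.02 CPM in the Ptprc-high libraries. Lyve1 was at 2.29 CPM in the Ccl21a-high (0.957 to 7.08), 2.82 to 7.39 CPM in the Msln-high, 0.0630 to 1.68 CPM in the remaining and 9.56 to 216 CPM in the Ptprc-high libraries. With Pdpn, Prox1 and Lyve1 are the 3 listed markers of highest mean level. The 2 markers highest in the Ccl21a-high class are others of the list, and their levels are not given. Pdpn made up most of the sum in the Ccl21a-high class. Which cells gave the lymphatic marker reads in each class was not tested, so the sums do not measure lymphatic cells. Markers of high endothelial venules, the entry vessels of lymph nodes, summed to 79.3 to 168 CPM in the Ccl21a-high libraries, the highest of the 4 classes. Of the 5 markers, 3 had their highest class median there, 1 in the Msln-high and 1 in the Ptprc-high libraries. Madcam1, 1 of the listed markers, was at 28.1 CPM (22.9 to 37.7). Chst2 had a higher mean level over all libraries than Madcam1, and its class levels are not given. Pdpn is in the FRC and the lymphatic lists, and neither holds a CCR7 ligand. The part of these cell types in the ligand levels was not tested. Acinar pancreas markers summed to 0.830 to 3.37 CPM in the Ccl21a-high libraries and to 120 CPM or more in each of the other 20, up to 13259 CPM. Ins2, whose promoter the transgene uses, was at 0 to 0.830 CPM in the Ccl21a-high libraries, 0 to 0.492 CPM in the Msln-high libraries, 0.805 to 82.4 CPM in the Ptprc-high libraries and 0.119 to 13.3 CPM in the remaining libraries. All 8 beta cell markers summed to 0.886 to 2.91 CPM in the Ccl21a-high libraries and to 6.33 to 176 CPM in the other 20, with the highest sum in the Msln-high library gp38_high TG- 1.

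Ccr7 (ENSMUSG00000037944.8, chromosome 11, 99144196 to 99155077, minus strand), the signalling receptor, was high in all 8 Ptprc-high libraries and in no other. It was at 756, 415 and 301 CPM in LN_FRC TG+ 2, 4 and 3, against 829 CPM in CD45 TG- 4, 814 CPM in gp38_high TG- 2, 631 and 406 CPM in LN_FRC TG- 4 and 3, and 350 CPM in gp38_low TG- 1. The median was 523 CPM, or 264 RPKM (152 to 419), and TG+ and TG- values overlapped. Gm26917 took 20.8% to 36.0% of the reads in these libraries, against 9.78% to 22.2% in the Ccl21a-high, 5.31% to 6.82% in the Msln-high and 5.39% to 7.93% in the remaining libraries. Without it in the total, the Ccr7 median was 772 CPM. In the other 19 libraries Ccr7 was at most 2.01 CPM: 0.447 to 2.01 CPM in the Ccl21a-high (median 1.10), 0.0526 to 0.574 CPM in the Msln-high (median 0.328) and 0 to 0.791 CPM in the remaining libraries (median 0.278). These ranges overlapped. The leukocyte markers summed to 3090 to 3851 CPM in the Ptprc-high and 6.15 to 15.9 CPM in the Ccl21a-high libraries. They summed to 0.632 to 4.22 CPM in the Msln-high and 1.03 to 4.94 CPM in the remaining libraries. This list holds Ptprc, which set the class, so the sums repeat in part the rule that chose the libraries.

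Within the Ptprc-high libraries Ccr7 did not follow Ptprc. Ptprc was at 228, 568 and 627 CPM in LN_FRC TG+ 2, 4 and 3, against 261 CPM in CD45 TG- 4, 451 CPM in gp38_high TG- 2, 169 and 633 CPM in LN_FRC TG- 4 and 3, and 679 CPM in gp38_low TG- 1. The 4 libraries with the most Ccr7 had the 4 lowest Ptprc levels. Markers of B cells summed to 2282, 1714 and 1152 CPM in LN_FRC TG+ 2, 4 and 3, against 2487 CPM in CD45 TG- 4, 2146 CPM in gp38_high TG- 2, 1828 and 1387 CPM in LN_FRC TG- 4 and 3, and 1290 CPM in gp38_low TG- 1. The 8 libraries had the same order by B cell markers as by Ccr7, apart from 1 exchange between LN_FRC TG+ 2 and gp38_high TG- 2. T cell markers summed to 752 to 1522 CPM, with LN_FRC TG+ 2 highest and LN_FRC TG+ 3 lowest, and the 4 libraries with the most Ccr7 also had the 4 highest T cell sums. Macrophage markers had their lowest sum, 754 CPM, in CD45 TG- 4 and their highest, 5302 CPM, in LN_FRC TG+ 3, the libraries with the most and the least Ccr7. Mature dendritic cells are a further source of Ccr7, and their markers summed to 497 to 740 CPM with no such order. The libraries share one total of reads, so a larger share of one cell type lowers the CPM of all others, and the part of each cell type in the Ccr7 level was not tested.

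**Figure D3:**
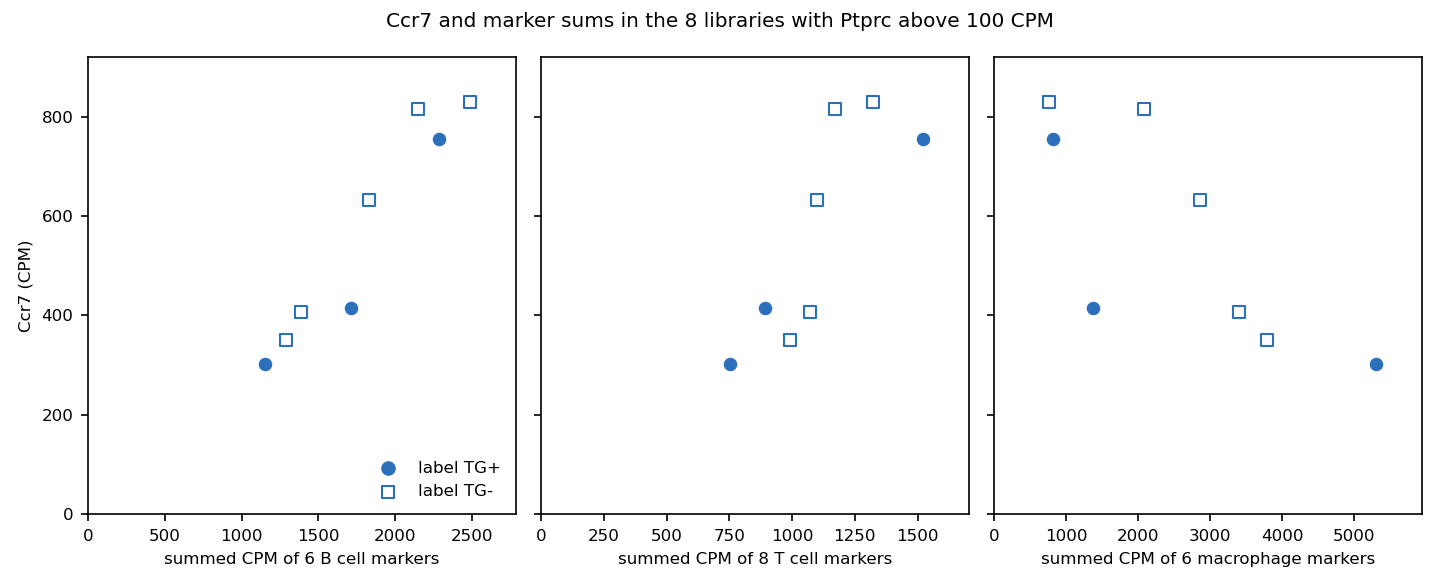
Ccr7 level (y axis, CPM) against the summed CPM of 6 B cell, 8 T cell and 6 macrophage markers (x axes, each from 0) in the 8 libraries with Ptprc above 100 CPM; filled circles are TG+ labels and open squares TG- labels. Ccr7 ran from 301 CPM in the library with the fewest B cell marker reads (1152 CPM) to 829 CPM in the library with the most (2487 CPM), while macrophage markers were at 5302 and 754 CPM in the same libraries.

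Ackr4 (ENSMUSG00000079355.5, chromosome 9, 104084157 to 104126933, minus strand), the scavenger, had its highest levels where neither the ligands nor Ccr7 were high. In the 8 remaining libraries it was at 39.2 and 36.5 CPM in CD45 TG+ 2 and 4, 44.9 and 38.3 CPM in gp38_high TG+ 1 and 2, and 33.5 and 49.8 CPM in gp38_low TG+ 2 and 4, against 38.3 CPM in gp38_low TG- 2 and 43.3 CPM in LN_FRC TG- 1. The highest was 1.49 times the lowest. The Msln-high libraries had 8.16 CPM in CD45 TG+ 1, against 7.27 CPM in gp38_high TG- 1, 8.74 CPM in gp38_low TG- 4 and 16.2 CPM in LN_FRC TG- 2, all below the remaining libraries. The Ccl21a-high libraries had 0.225 to 2.60 CPM (median 0.671, 4 to 33 reads) and the Ptprc-high libraries 0.0777 to 0.804 CPM (median 0.554, 1 to 13 reads). These last ranges overlapped, so the order of the classes was remaining, then Msln-high, then both others without a difference beyond their spread. On the length scale Ackr4 reached 7.21 RPKM in the remaining libraries (6.23 to 9.26), far under the ligands and Ccr7 in their own classes.

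Ackr4 is overlapped on the other strand by Acad11 (104063377 to 104127725, plus strand; named after its values were seen), so its strand columns were compared. Over 27 libraries Ackr4 had 6034 sense reads and 1665 reads on the forward strand, or 21.6% of both. The forward share was 0.487% for Ccl21a, 0.357% for Ccl19 and 0.585% for Ccr7. Forward reads per library numbered 31 to 97 in the remaining libraries, where sense reads numbered 343 to 966, and 15 to 117 in all libraries. In the Msln-high libraries they numbered 69 to 117, against 116 to 278 sense reads. Forward reads outnumbered sense reads in the Ccl21a-high libraries (40 to 117 against 4 to 33) and in the Ptprc-high libraries (15 to 71 against 1 to 13). The unstranded column, which leaves out reads that overlap both genes, held 6202 Ackr4 reads.

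Ccrl2, an atypical receptor on leukocytes, and Ackr3, the scavenger of CXCL12, extend the picture beyond the 5 genes. Of 6 atypical receptor genes, Ackr4 included, 5 had their highest class median in the remaining libraries, with Ackr3 at 515 CPM there (273 to 736), against 149 CPM in the Msln-high, 25.2 to 70.9 CPM in the Ccl21a-high and 1.42 CPM in the Ptprc-high libraries. Ackr2, the scavenger of inflammatory chemokines, was at 56.3 CPM in the remaining libraries (26.3 to 73.7) and at most 7.17 CPM in any other library. Ccrl2 was the exception, at 105 CPM in the Ptprc-high libraries (51.3 to 121) and at most 17.4 CPM elsewhere.

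Of 9 genes upstream of the ligands, 5 had their highest median in the Ptprc-high and 4 in the Ccl21a-high libraries. Nfkb2, a subunit of the noncanonical NF-kappaB pathway that induces both ligands, was at 315 CPM in the Ccl21a-high libraries (278 to 362), 219 CPM in the Ptprc-high (180 to 260), 109 CPM in the Msln-high (91.9 to 174) and 63.1 CPM in the remaining libraries (51.6 to 92.1). Map3k14, the kinase of that pathway, was at 97.4 CPM in the Ccl21a-high and 101 CPM in the Ptprc-high libraries, with overlapping ranges, against 37.1 CPM in the Msln-high and 30.6 CPM in the remaining libraries. Tnfrsf1a, a TNF receptor, was at 256 CPM in the Ccl21a-high libraries (232 to 314) and 71.1 CPM in the Ptprc-high libraries (37.1 to 96.9). Its mean over all 27 libraries was 170 CPM. Its levels in the Msln-high and remaining libraries are not given, so no difference from them is read.

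Genes downstream of CCR7 were mostly those of the Ptprc-high libraries, where 11 of 12 had their highest median. Rac2, a GTPase of leukocyte migration, was at 527 CPM there (330 to 737) and at most 3.12 CPM in any other library. Gnai2, the G protein subunit of chemokine receptors, was high in every class, at 692 CPM in the Ptprc-high and 326 to 452 CPM as the medians of the others. Arrb1, a beta-arrestin that uncouples receptors, was the 1 gene highest elsewhere, at 313 CPM in the Ccl21a-high (254 to 341) and 124 CPM in the Ptprc-high libraries (68.7 to 192). Of 9 naive lymphocyte homing genes, 8 were highest in the Ptprc-high libraries. Itgb7, an integrin subunit of gut homing, was at 335 CPM there (219 to 442) and at most 5.98 CPM elsewhere, while Klf2, a regulator of lymphocyte exit, was at 657 CPM (461 to 757) and at 533 CPM in the Msln-high libraries (238 to 649), and Foxo1 was highest in the Msln-high libraries at 269 CPM (221 to 301). Among 9 other homeostatic chemokines and receptors, Cxcl12, a ligand that stroma makes, was at 4768 CPM in the Ccl21a-high libraries (4173 to 6042) and at most 253 CPM elsewhere, and Cxcl13, a chemokine that draws B cells, at 345 CPM (227 to 448) and at most 150 CPM elsewhere. Cxcr4, the CXCL12 receptor, was at 715 CPM in the Ptprc-high libraries (567 to 1006).

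**Figure D4:**
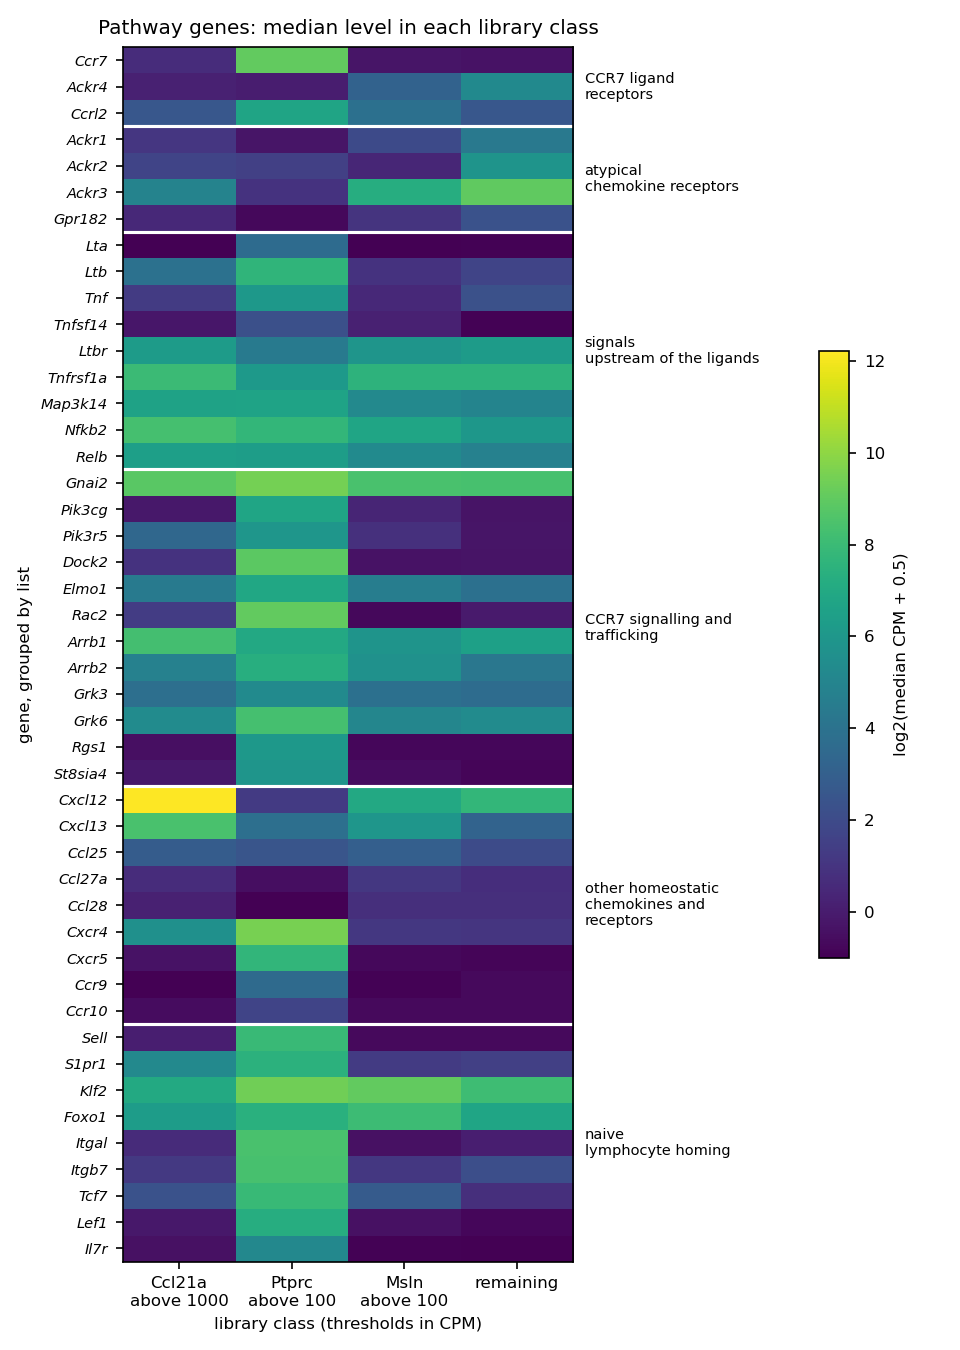
Median level of each pathway gene (rows, grouped by list) in each library class (columns), as log2 of the median CPM plus 0.5 (colour). Of 12 genes downstream of CCR7, 11 were highest in the Ptprc-high libraries, and 5 of 6 atypical receptors in the remaining libraries. The share of all genes highest in each class is not given.

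The genes most like each member were found by the SD, over the 27 libraries, of the log2 ratio of their CPM to that of the member (0.5 CPM added to each), where a small SD means parallel levels. This likeness is a description over libraries that share their classes. For Ccl21a they were Dsc3 (SD 0.90), Slc7a11 (1.51), Serpina1b (1.55), Ccl19 (1.68) and Serpina10 (1.80), among 1090 genes with a median SD of 6.07. Dsc3 was at 982 CPM in the Ccl21a-high libraries (577 to 1469) and at most 2.18 CPM elsewhere. For Ccl19 they were Serpina10 (0.86), Csmd1 (0.93), Serpina1b and Dsc3 (up to 1.02) and Insrr (1.10), among 1964 genes with a median of 4.52. Ccr7 was closest to Cd22 (0.34), Cd79b (0.42), Fcmr (0.43) and Ighd (0.45), among 1826 genes with a median of 6.33. Ackr4 was closest to Hand2os1 (0.53), Plekha6 (0.57), Lgi3 (0.61), Dio2 (0.69) and Bmp7 (0.69), among 4715 genes with a median of 2.47.

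The labels carry the comparisons of the study, and directions in them refer to the labels. The transgene question is whether the axis differed between TG+ and TG- cells of a population. Over the 7 comparisons edgeR called none of the 5 members and none of the genes of the pathway lists, and the call rates below are those of all genes. Ccl21b passed the expression filter in no comparison, and 2 to 4 of the 5 members passed in each.

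**Figure D5:**
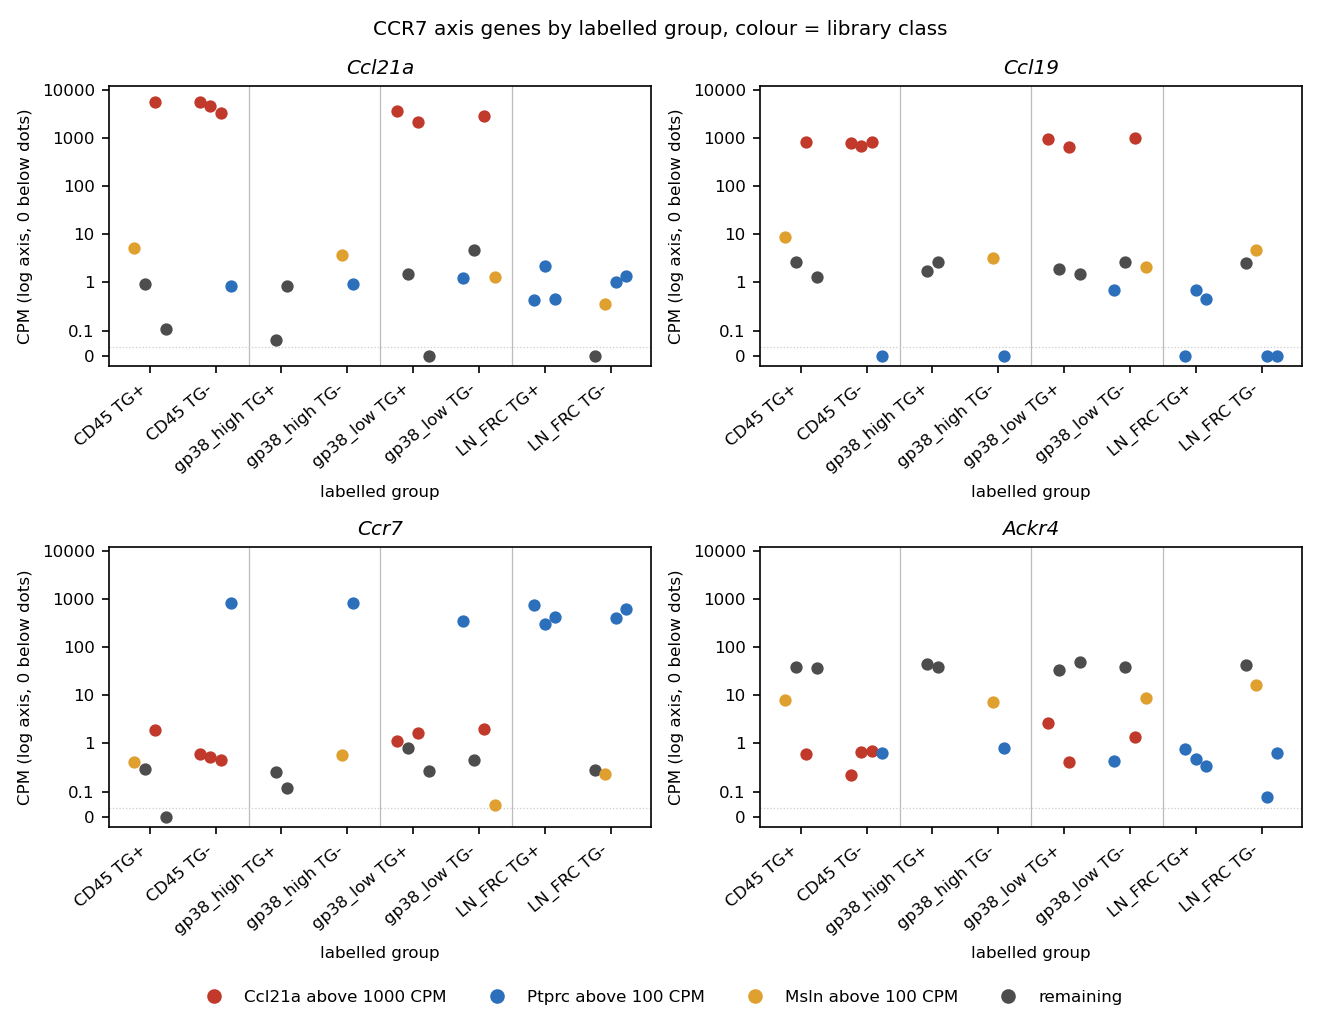
Level of Ccl21a, Ccl19, Ccr7 and Ackr4 in each of 27 libraries (y axis, CPM on a log scale, 0 drawn below the dotted line) by labelled group (x axis, TG+ left of TG- in each population), with colour for the library class. Most groups hold libraries of several classes, and Ccl21a spans 0.109 to 5685 CPM within CD45 TG+ alone.

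In the libraries labelled CD45, Ackr4 was at 39.2, 36.5, 8.16 and 0.591 CPM in TG+, against 0.225 to 0.702 CPM in TG-. The TG+ value of 0.591 CPM lay within the TG- range, in the 1 TG+ library that was Ccl21a-high. The log2 difference was 4.94 ± 1.19 (SE) with an adjusted p of 0.506 by edgeR, which called 0 of the 3 members tested and 0.0% of 14871 genes (1402 had an unadjusted p under 0.05). DESeq2 called 2.87% of the genes, among them Ackr4 (4.92 ± 1.03, adjusted p = 0.000554). Of 8 fits that each left out 1 library, edgeR called Ackr4 in 1 (5.33, adjusted p = 0.0204). That fit left out CD45 TG+ 3 and called 519 genes. Ccl21a had a log2 difference of -1.28 ± 2.79 (adjusted p = 0.875, edgeR) and Ccl19 of -1.54 ± 2.35 (adjusted p = 0.822, edgeR), as 1 of 4 TG+ and 3 of 4 TG- libraries were high. Ccr7 did not pass the filter.

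In gp38-low, 2 of 4 TG+ and 1 of 4 TG- libraries were Ccl21a-high, and edgeR called 0 of 4 members and 0.0% of 14095 genes (273 had an unadjusted p under 0.05; DESeq2 called 1 gene, 0.00709%, and none of the members, with no adjusted p for Ccr7). The log2 differences were 0.81 ± 2.99 for Ccl21a, 0.47 ± 2.53 for Ccl19 and 0.63 ± 1.58 for Ackr4. Ccr7 was at 0.274 to 1.67 CPM in TG+, against 0.0526 to 2.01 CPM in 3 TG- libraries and 350 CPM in TG- 1. Its log2 difference of -6.59 ± 2.56 (adjusted p = 0.999, edgeR) was -0.01 without that Ptprc-high library.

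In gp38-high, with 2 libraries in each group, the groups did not overlap for 3 of the 4 members tested, against 40.9% of the 17937 genes tested, and nothing is read from this count. Ackr4 was at 44.9 and 38.3 CPM in TG+, against 7.27 and 0.804 CPM in TG-. Ccr7 was at 0.252 and 0.119 CPM in TG+, against 0.574 and 814 CPM in TG-, and Ccl21a at 0.0630 and 0.834 CPM in TG+, against 3.68 and 0.928 CPM in TG-. Each TG+ library was of the remaining class, and the TG- libraries were Msln-high and Ptprc-high. edgeR called 0 of 4 members and 0.0% of 17937 genes (920 had an unadjusted p under 0.05; DESeq2 called 0.223% and none of the members, with no adjusted p for Ccr7). The log2 difference of Ackr4 was 3.57 ± 2.28 (adjusted p = 0.663, edgeR), and that of Ccr7, -11.34 ± 4.72 (adjusted p = 0.663, edgeR), was -1.34 without gp38_high TG- 2.

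In the libraries labelled LN_FRC, Ccr7 was at 756, 415 and 301 CPM in TG+, against 631, 406, 0.283 and 0.234 CPM in TG-, with a log2 difference of 1.03 ± 2.13 (adjusted p = 0.894, edgeR). Ccl21a was at 0.435 to 2.23 CPM in TG+ and 0 to 1.35 CPM in TG- (0.64 ± 1.20, adjusted p = 0.892, edgeR). Ccl19 and Ackr4 did not pass the filter, Ackr4 being at 0.345 to 0.761 CPM in TG+ and at 43.3, 16.2, 0.649 and 0.0777 CPM in TG-. edgeR called 0 of 2 members and 0.0% of 13819 genes (981 had an unadjusted p under 0.05), and DESeq2 called 3.97%, without Ccr7 and with no adjusted p for Ccl21a.

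Over all populations the common TG+ effect was -0.30 ± 1.45 for Ccl21a, -0.65 ± 1.35 for Ccl19, 1.70 ± 1.41 for Ackr4 and -6.63 ± 2.45 for Ccr7, whose adjusted p was 0.676 by edgeR. edgeR called 0 of 4 members and 0.0% of 19010 genes (1259 had an unadjusted p under 0.05). DESeq2 called 3.2%, among them Ccr7 (-6.69 ± 1.20, adjusted p = 1.31e-05). The Ptprc-high class held 3 of 13 TG+ and 5 of 14 TG- libraries, and within it Ccr7 was at 301 to 756 CPM in TG+ and 350 to 829 CPM in TG-. Without the 14 libraries whose Ptprc level was at odds with their label, the Ccr7 difference was -0.34 ± 0.79 and was not called by edgeR. That selection by Ptprc leaves 1 Ccr7-high library, labelled CD45 TG- 4, so it fixed the small value. The 9 naive lymphocyte homing genes, all tested, had a median log2 difference of -3.87 and the 12 genes downstream of CCR7 of -1.71, against -0.13 over all genes, with none called by edgeR in either list. Cell type markers moved with them and had larger medians: -6.43 for the 5 leukocyte, -6.14 for the 6 macrophage, -5.99 for the 6 B cell and -5.47 for the 8 T cell markers, and their part in the list medians was not tested.

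Between populations, the log2 differences were above 0 for the ligands with the label CD45 and for Ccr7 with the label LN_FRC, but edgeR called none of them. CD45 against the stromal groups gave a log2 difference of 7.83 ± 1.93 for Ccl21a (adjusted p = 0.250, edgeR), 5.50 ± 1.56 for Ccl19 (adjusted p = 0.250, edgeR), -1.35 ± 1.57 for Ccr7 and -1.27 ± 0.95 for Ackr4. edgeR called 0 of 4 members and 0.0% of 19010 genes (1836 had an unadjusted p under 0.05). DESeq2 called 1.59%, among them Ccl21a and Ccl19. Of 27 fits that each left out 1 library, edgeR called Ccl21a in 1 (9.20, adjusted p = 0.0480). That fit left out gp38_low TG- 3, a Ccl21a-high library, and called 59 genes. Without the 14 libraries at odds with their labels, which leaves 1 CD45 library whose spread is taken from the other groups, the differences were -3.55 for Ccl21a, -11.26 for Ccl19 and 11.22 for Ccr7. Ptprc chose those libraries, and no library passed more than 1 class threshold. The selection thus also removed every Ccl21a-high library labelled CD45 and kept those labelled gp38_low. It fixed the turn of the ligands as well as that of Ccr7, so these values are descriptions.

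Lymph node FRC against islet gp38 libraries gave 5.59 ± 1.81 for Ccr7 (adjusted p = 0.102, edgeR), -5.03 ± 2.11 for Ccl21a (adjusted p = 0.112, edgeR), -4.74 ± 1.98 for Ccl19 (adjusted p = 0.111, edgeR) and -2.12 ± 1.20 for Ackr4 (adjusted p = 0.195, edgeR). edgeR called 0 of 4 members and 0.0% of 18396 genes (6801 had an unadjusted p under 0.05). DESeq2 called 26.3% of the genes, with Ccr7, Ccl21a and Ccl19 among them. Of 19 fits that each left out 1 library, edgeR called Ccr7 in 1 (7.23, adjusted p = 0.0318). That fit left out gp38_low TG- 1, a Ptprc-high library, and called 3720 genes. Without the 7 stromal libraries that were Ptprc-high, which leaves 2 of LN_FRC TG- and none of LN_FRC TG+, the differences were -1.02 for Ccr7, -7.76 for Ccl21a, -3.16 for Ccl19 and 0.85 for Ackr4, none of them called by edgeR. Every Ccr7-high library is removed from both sides by that selection, so the loss of the Ccr7 difference was fixed by it. The comparisons over all populations share libraries with one another and are not independent of each other.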

How the data were processed

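The authors deposited 1 table of raw read counts per gene for each of 27 libraries, and the tools were STAR 2.5.2a on mm10, Trim Galore 0.4.3 and bcl2fastq 2.17, per the submitters' processing notes. Per the labels' protocols, RNA from sorted cells went into ribosome-depleted KAPA libraries. STAR's gene counter keeps uniquely mapped reads only, so near-identical genes lose reads. The sources used here name no annotation release. The reverse-strand column served as the sense count, and rows for reads outside genes, unmapped, multiply mapped or ambiguous (51.7% to 79.7% of the reads tabulated per library) were left out. Symbols and positions came from GENCODE release M21 (54409 of 54446 identifiers matched), promoters from RefSeq on GRCm38.p6. Ccl21c was not analysed here. CPM are counts scaled to a common total of reads in genes, and RPKM are CPM per kilobase of merged exons. A count of 0 allows up to 3 counts, which covers counting error only.

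Labels set the groups for every test. edgeR 4.0.16 (TMM, filterByExpr, robust quasi-likelihood F test, Benjamini-Hochberg adjustment over all genes tested, 5% false discovery rate written as 0.05) ran under R 4.3.3, after the script was tested on simulated data with 200 changed genes. Each SE was the size of the log2 difference divided by the square root of F. For the transgene, each of CD45, gp38-low and lymph node FRC was fitted alone, gp38-high with gp38-low, and the other comparisons with population or group means. Alternatives were DESeq2 1.42.0, relative log expression factors, no filter, unstranded counts, Ccl21 copies summed, a block for the replicate number, and leaving out single libraries in turn. Leaving out all libraries at odds with their labels was added after the data were seen. No 2 libraries of a group were duplicates: the lowest chi-square per degree of freedom between replicates was 11.5.

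The 5 genes, the library classes and the gene lists were chosen with earlier results of these data known. Genes named beyond the 5 were the Ccl21 copies, the class genes, up to 3 genes per pathway list by mean CPM, and the 5 genes most like each member by the SD of the log2 ratio (0.5 CPM added) among genes with at least 10 CPM (1 CPM for Ackr4) in at least 2 libraries and with a log2 SD no less than 0.5 of the member's. One gene that this rule names is not reported here. Other genes were named after their values were seen.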

Additional observations from a re-analysis of the deposited data

Results flagged for a closer look

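Within labelled groups of 4 libraries, 24 sets of member values were examined for 1 library far from the others, and 10 had one. Chance flags about 1 in 20 sets of independent values. These sets share libraries, and a lone Ccl21b value among zeros is flagged whatever its size, so the count is not set against that rate. In CD45 TG+, the library TG+ 3 stood apart with 5685 CPM of Ccl21a (others 0.109 to 5.28), 808 CPM of Ccl19 (others 1.30 to 8.86) and 2.30 CPM of Ccl21b (others 0). In CD45 TG-, the library TG- 4 stood apart with 829 CPM of Ccr7 (others 0.447 to 0.618) and 0 CPM of Ccl19 (others 689 to 824). In the same group TG- 1 had 0.225 CPM of Ackr4 (others 0.638 to 0.702), a gap that rests on 4 reads against 9 to 13.

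In gp38-low TG-, the library TG- 3 stood apart with 2809 CPM of Ccl21a (others 1.22 to 4.69), 984 CPM of Ccl19 (others 0.696 to 2.68) and 0.274 CPM of Ccl21b (others 0), the last from 3 reads. In that group TG- 1 had 350 CPM of Ccr7 (others 0.0526 to 2.01). Apart from the Ackr4 value, each of these libraries was the only one of its group in its library class.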

How the results depend on the processing

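DESeq2 called 427 genes for the transgene in CD45, 1 in gp38-low, 40 in gp38-high, 549 in lymph node FRC and 608 over all populations, 302 for CD45 against stromal and 4831 for lymph node FRC against islet gp38, where edgeR called 0 in each. With 1 library left out in turn, edgeR called 0 to 519 genes for the transgene in CD45, 0 to 59 for CD45 against stromal, 0 to 3720 for lymph node FRC against islet gp38, and 0 to 0 in the other 4. Directions that changed when 1 library was left out had log2 ranges of -0.0701 to 9.16 (Ccl21a), -0.32 to 7.78 (Ccl19) and -0.36 to 2.73 (Ackr4) in gp38-low, -0.24 to 7.91 (Ccl19) in gp38-high, -0.35 to 0.97 (Ccl21a) in lymph node FRC, -0.93 to 0.28 (Ccl21a) over all populations and -5.79 to 0.29 (Ccr7) for CD45 against stromal. The library behind each was gp38_low TG+ 1 (both ligands) or TG+ 4 (Ackr4) in gp38-low, gp38_high TG- 2 in gp38-high and for CD45 against stromal, LN_FRC TG+ 3 in lymph node FRC and gp38_low TG- 3 over all populations, and none of the turned values was called. Without all libraries at odds with their labels, an alternative chosen after seeing the data, edgeR called 5900 genes for CD45 against stromal and 0 in the other 4 comparisons it could be run for. It turned Ccl19 in gp38-high (-0.23), Ccl21a (-3.55), Ccl19 (-11.26) and Ccr7 (11.22) for CD45 against stromal, and Ccr7 (-1.02) and Ackr4 (0.85) for lymph node FRC against islet gp38. The selection by Ptprc fixed the turns for CD45 against stromal, as it removed every Ccl21a-high library labelled CD45. This alternative could not be run for the transgene in CD45 or in lymph node FRC, where 1 CD45 library and no LN_FRC TG+ library would be left. Relative log expression factors, no filter, unstranded counts and summed Ccl21 copies changed no direction or call of a member. Of 100 class medians under 5 settings, 98 moved by less than the spread within the class. With doubled thresholds 1 library, LN_FRC TG- 4 with Ptprc at 169 CPM, left the Ptprc-high class, whose Ccr7 median was then 415 CPM. Without Gm26917 in the total the Ccl19 median was 935 CPM in the Ccl21a-high libraries and the Ccr7 median 772 CPM in the Ptprc-high libraries. The cause of these changes was not tested.

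Whether replicate numbers pair the libraries could not be decided. Deviations of same-numbered libraries from their group means correlated at -0.189 to 0.235 in CD45 and 0.0609 to 0.692 in gp38-low. They correlated at -0.0133 in gp38-high and -0.168 to -0.0125 in lymph node FRC. Most labelled groups mix library classes, so these deviations carry the classes, and in gp38-high 2 libraries per group force both pairs to 1 value. Of 8 libraries each in CD45 and gp38-low, 3 and 2 correlated best with their own number, and 0 of 6 in lymph node FRC. With the number as a replicate block edgeR again called 0 genes in all 7 comparisons, and Ccl21a in gp38-low (-0.80) and Ccl19 over all populations (0.0181) changed direction. With 2 to 4 libraries per group and several classes within a group, only differences above this spread could be detected. Counts of 1 to 33 reads limit Ackr4 in the Ccl21a-high and Ptprc-high libraries, and counts of 0 to 39 limit Ccl21b.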
